A study of Canis lupus familiaris with 12 samples.

Results

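The genes of glycolysis and of the response to low oxygen were followed in dog kidney cells grown as cysts or as flat sheets. They were 40 genes named by symbol: 15 glycolytic enzymes, 2 glucose transporters, 2 enzymes that make fructose 2,6-bisphosphate, the oxygen-regulated transcription factor subunit HIF1A with 2 of its prolyl hydroxylases, and 18 further genes that low oxygen is known to induce. Every probe set whose platform annotation gave one of these symbols alone was taken, which gave 94 probe sets for the 40 genes, out of 43035 probe sets and 15115 genes in all. Of the 94, 3 were Affymetrix control probe sets for GAPDH and were described but not tested, so that 91 were tested. No gene was missing, and no filter on low values was used. Where a gene had several probe sets, the brightest over all arrays stood for it.

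RNA was hybridised to 12 Affymetrix dog arrays, each read in one colour, and came from MDCK II tet-off cells, an established epithelial line of dog kidney tubule. In the 3D group (6 arrays) the cells had formed multicellular cysts in 3-dimensional type I collagen, and in the 2D group (6 arrays), the control, they had formed flat sheets in 2-dimensional culture on that collagen. Both groups were a single cell line in the same serum-containing medium with G418, were released with collagenase on day 8, and had the RNA of 4 separate samples pooled for each array. No exposure to low oxygen is among the labelled conditions. The labels leave unsaid how samples were assigned to pools. The p-values here therefore cover the spread between pools alone, which may be partly technical.

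Glycolysis splits glucose into pyruvate and yields ATP without oxygen, and its last products can be turned into lactate and exported. HIF-1, a dimer of an oxygen-regulated alpha subunit and the stable partner ARNT, binds the regulatory regions of most glycolytic genes and of genes for blood vessel growth, pH control, mitophagy and collagen maturation. The alpha subunit is controlled mainly as a protein: when oxygen is present, prolyl hydroxylases of the EGLN family mark it for destruction by the VHL ubiquitin ligase. Several EGLN and other dioxygenase genes are themselves HIF targets.

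The arrays had median intensities of 89.9 to 90.7 in 3D and 90.5 to 93.7 in 2D. The kidney epithelial markers EPCAM, KRT8, KRT18 and CDH16 were well above background in both groups, with none of the 10 epithelial markers at background on all arrays. Dimmer were PAX2, with means of 6.28 in 3D and 6.45 in 2D, and CDH1, with 7.62 in 3D and 6.60 in 2D. Of the 10, 5 rose and 2 fell (limma adjusted p under 0.05), while 19.8% of all genes rose and 22.9% fell. The mean level of 8 fibroblast markers was 5.81 to 5.94 in 3D and 5.91 to 6.11 in 2D on the log2 scale, that of 8 leukocyte markers 6.04 to 6.24 in 3D and 6.11 to 6.24 in 2D, and that of 6 endothelial markers 6.00 to 6.09 in 3D and 6.06 to 6.21 in 2D, near the background of 5.71. Single markers lay above these means. CD3E averaged 7.08 in 3D and 7.27 in 2D, CD14 7.28 in 3D and 6.85 in 2D, and CDH5 6.81 in 3D and 6.84 in 2D. As a measure of RNA integrity, the 5′ to 3′ signal ratio of control probe sets for actin and GAPDH averaged, on the log2 scale, -0.54 ± 0.17 in 3D and -0.91 ± 0.14 in 2D (SD, n = 6 arrays each, exact two-sided permutation p = 0.00866). In this average only 3D replicate 2, at -0.88, lay within the range of the 2D arrays. The ratio and the culture were thus largely confounded. Where a call ended or a sign turned after adjustment for the ratio, the 2 cannot be told apart. Counts fitted with this ratio as a covariate are given for the 40 genes, the glycolytic enzymes and each list of other genes, with the named genes whose call they ended, and the part of RNA integrity in the differences was not otherwise tested.

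Most of the genes were higher in cysts. Of the 40 genes, 27 rose, 2 fell and 11 did not pass (limma adjusted p under 0.05), which is 67.5% raised and 5% lowered, against 19.8% raised and 22.9% lowered of all 15115 genes. The median log2 fold change was 0.49 over the 40 genes and -0.05 over all genes. In 25 of the 40 genes the 6 values of 3D and the 6 of 2D did not overlap, in 24 of them with 3D higher, while 22.6% of all genes separated in either direction and 13.2% with 3D higher. After adjustment for the 5′ to 3′ ratio 25 rose and 1 fell, against 12.6% raised and 8.33% lowered of all genes. With a minimum change of 1.2-fold 21 of the 40 genes rose and 1 fell. Counted by probe set, 44 of 91 then rose and 1 fell, against 2283 raised and 773 lowered of all 42924. The glycolytic enzymes were raised as a whole. Of the 25 other genes, which include the transporters, HIF1A and its prolyl hydroxylases, 12 rose, 2 fell and 11 did not pass. Among all genes 19.8% were raised and 22.9% lowered.

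**Figure D1:**
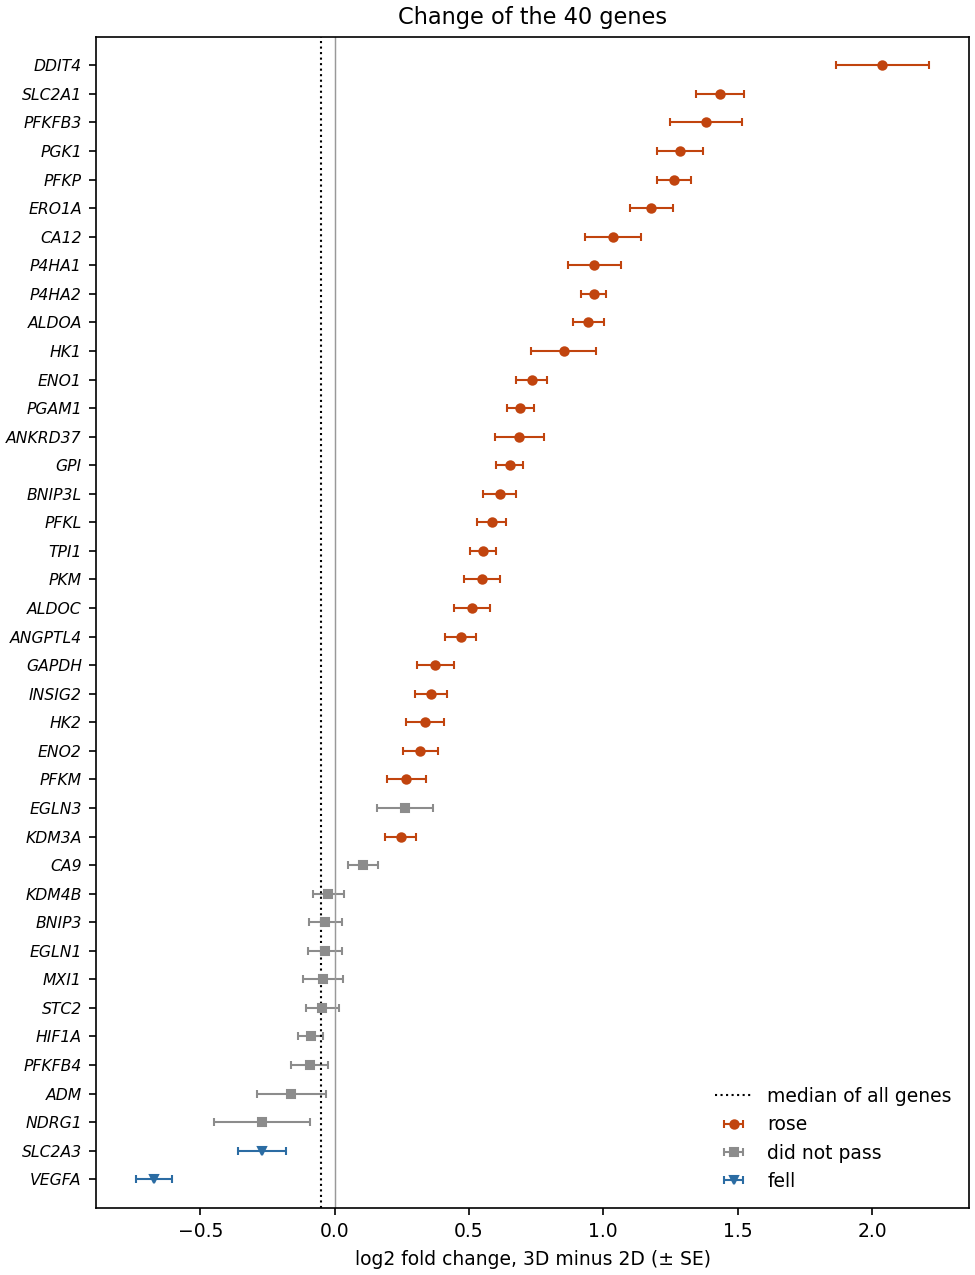
Log2 fold change of each of the 40 genes (x axis, 3D minus 2D, ± SE, 6 arrays per group), ordered by size, with symbols for genes that rose, fell or did not pass and a dotted line at the median of all genes, -0.05. DDIT4 stands at the top and VEGFA at the bottom, and HIF1A and EGLN1 lie beside the median; DDIT4 is drawn at its fitted value although its 2D level was at background.

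Glucose enters through facilitative transporters. SLC2A1 (GLUT1), the basal transporter of most epithelia, had log2 values of 11.85, 11.95 and 12.07 (lowest, median and highest) in 3D and 10.29, 10.52 and 10.87 in 2D. The groups were far apart, and SLC2A1 rose 2.70-fold (log2 fold change 1.43, SE 0.09, limma adjusted p = 3.04e-09). Its other probe sets rose by 1.61 and 1.60 on the log2 scale. SLC2A3 (GLUT3), a high-affinity transporter best known from neurons, was dim: it had 5.60, 5.73 and 6.04 in 3D and 5.80, 6.07 and 6.30 in 2D, and these overlapped. It fell by 0.27 on the log2 scale (SE 0.09, limma adjusted p = 0.0254). That call ended without any one of 5 arrays (2D replicates 5 and 6 and 3D replicates 1, 3 and 6, limma adjusted p of 0.0526 to 0.0604), and adjustment for the 5′ to 3′ ratio turned the sign (0.06, limma adjusted p = 0.761). The other 3 SLC2A3 probe sets did not pass, and 2 of them were at background on every array.

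All 15 glycolytic enzymes rose, with log2 fold changes from 0.27 for PFKM to 1.29 for PGK1 and a median of 0.58. In 13 of them the groups did not overlap, the exceptions being HK2 and GAPDH. After adjustment for the 5′ to 3′ ratio 14 of the 15 rose, and ENO2 did not pass (log2 fold change 0.20, limma adjusted p = 0.209). With a minimum change of 1.2-fold HK2, PFKM, GAPDH and ENO2 did not pass.

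Hexokinases trap glucose in the cell by phosphorylating it. HK1, the form found in most tissues, had 9.27, 9.45 and 9.63 in 3D and 8.04, 8.73 and 8.87 in 2D by its brightest probe set. By that probe set it rose by 0.85 on the log2 scale (SE 0.12, limma adjusted p = 4.59e-05). HK1 was also the single gene of the 40 whose probe sets went both ways, since a further probe set rose by 0.36 (limma adjusted p = 0.00157) and the one without a cross-hybridisation suffix fell by 0.24 (limma adjusted p = 0.000313). The groups did not overlap in either of these probe sets, so the direction of HK1 depended on the probe set. After adjustment for the 5′ to 3′ ratio the last of these probe sets no longer passed as lower. HK2, the inducible form, rose by 0.34 and, by its other probe set, by 0.64, with values of 7.01 to 7.42 in 3D and 6.81 to 7.04 in 2D.

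Glucose 6-phosphate isomerase, GPI, rose by 0.65 (SE 0.05, limma adjusted p = 4.45e-08). It had 13.10, 13.16 and 13.19 in 3D and 12.38, 12.47 and 12.67 in 2D, a narrow spread in both groups. Phosphofructokinase, which commits sugar to glycolysis, has subunits encoded by 3 genes, and all of them rose. PFKP, the platelet form, had 9.45, 9.63 and 9.76 in 3D and 8.26, 8.35 and 8.49 in 2D, and rose 2.40-fold (log2 fold change 1.26, SE 0.06, limma adjusted p = 2.60e-10). PFKL, the liver form, rose by 0.58 with 4 of 4 probe sets raised, although the PFKL probe set without a cross-hybridisation suffix gave only 0.32. PFKM, the muscle form, rose by 0.27, and its call ended with quantile normalization (0.16, limma adjusted p = 0.0959), while adjustment for the 5′ to 3′ ratio gave 0.46.

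Aldolase splits the phosphorylated sugar. ALDOA, the main form outside liver, had 12.89, 12.97 and 13.03 in 3D and 11.90, 11.98 and 12.18 in 2D. The groups lay well apart, and ALDOA rose by 0.94 (SE 0.06, limma adjusted p = 2.40e-09), or by 1.08 with the other probe set. ALDOC, the brain form, rose by 0.51 and 0.69 by its probe sets. Triose phosphate isomerase, TPI1, rose by 0.55, and its 3 probe sets all rose.

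Glyceraldehyde 3-phosphate dehydrogenase, GAPDH, often used as a loading control, was itself higher in 3D. The tested GAPDH probe set was dim, at 6.92, 7.07 and 7.15 in 3D and 6.54, 6.61 and 6.96 in 2D, and rose by 0.37 (SE 0.07, limma adjusted p = 0.000500). Among the 6 bright GAPDH control probe sets, which were not tested, the difference of means ranged from 0.47 to 0.71 on the log2 scale, and in all of them the lowest 3D array was above the highest 2D array. The 3′ control probe set named GAPDH by the annotation averaged 14.52 ± 0.02 in 3D and 14.05 ± 0.12 in 2D, and the 5′ one 13.62 ± 0.13 in 3D and 12.91 ± 0.17 in 2D (6 arrays each, ± SD). The difference was thus 0.47 at the 3′ end and 0.71 at the 5′ end.

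Phosphoglycerate kinase, PGK1, makes the first ATP of the pathway and is a classical HIF target. It had 13.15, 13.30 and 13.35 in 3D and 11.83, 11.92 and 12.44 in 2D, and rose 2.44-fold (log2 fold change 1.29, SE 0.09, limma adjusted p = 7.55e-09). Its highest 2D value, that of replicate 2, stood apart from the other 2D arrays but remained below all 3D arrays. The other PGK1 probe sets were dim. One rose by 0.60, and the one without a cross-hybridisation suffix was at background on all 12 arrays and gets no fold. The mean over all PGK1 probe sets gave 0.69.

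The last steps lead from phosphoglycerate to pyruvate. PGAM1, phosphoglycerate mutase, had 13.72, 13.75 and 13.82 in 3D and 12.96, 13.06 and 13.25 in 2D and rose by 0.69 (SE 0.05, limma adjusted p = 1.85e-08). ENO1, the enolase of most tissues, had 14.03, 14.06 and 14.09 in 3D and 13.19, 13.31 and 13.57 in 2D. It rose by 0.73 (SE 0.06, limma adjusted p = 6.82e-08), and its other probe sets rose by 1.06, 1.27 and 0.53. ENO2, the enolase of neurons, rose by 0.32, and PKM, pyruvate kinase, by 0.55 and 0.51 by its probe sets.

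**Figure D2:**
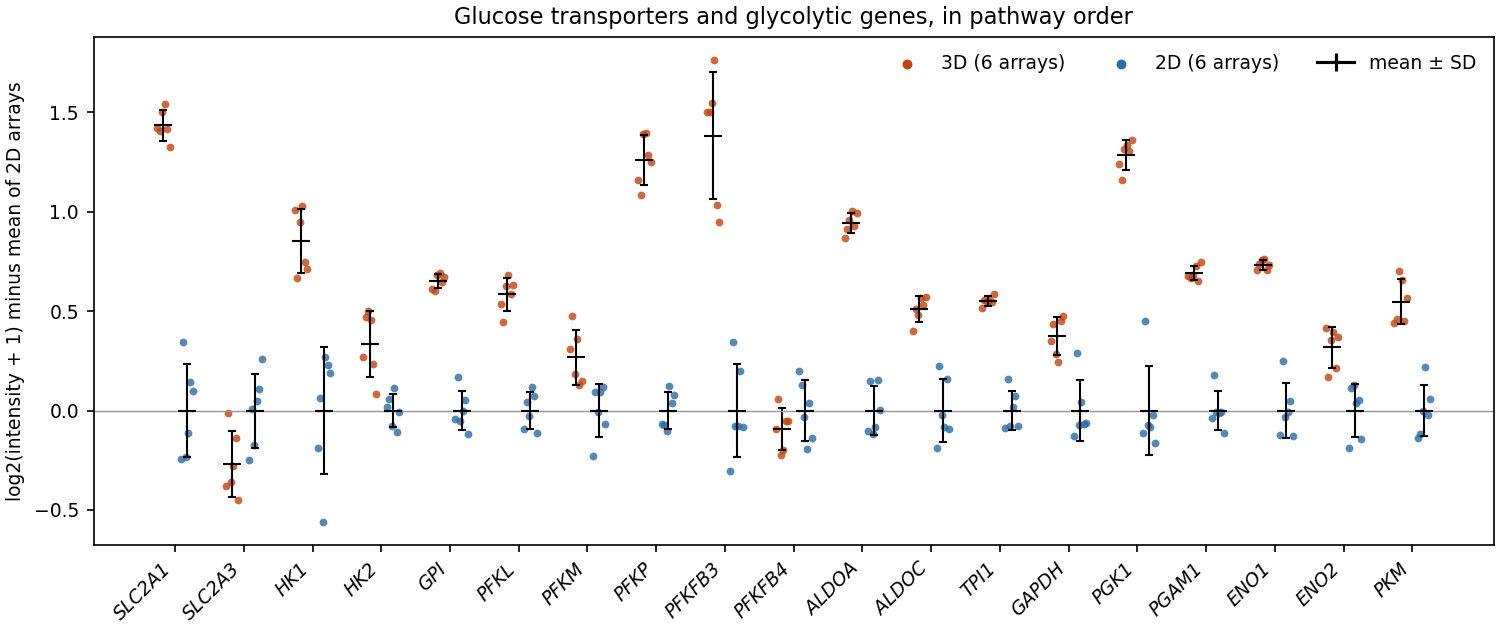
Glucose transporters, glycolytic enzymes and the PFKFB enzymes in pathway order (x axis), 1 probe set per gene, as log2(intensity + 1) minus the mean of the 2D arrays (y axis), with a point per array and bars for mean ± SD (6 arrays per group). The 3D points of PFKP, PGK1, ALDOA and SLC2A1 all lie above every 2D point, while those of SLC2A3 and PFKFB4 overlap with 2D.

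The PFKFB enzymes set the level of fructose 2,6-bisphosphate, the strongest activator of phosphofructokinase. PFKFB3, the form with the highest kinase activity, had 9.17, 9.72 and 9.98 in 3D and 7.91, 8.14 and 8.56 in 2D. It rose 2.61-fold (log2 fold change 1.38, SE 0.13, limma adjusted p = 6.21e-07) with no overlap. Other PFKFB3 probe sets rose by 0.93 and 0.22, a dim one did not pass, and the mean over its probe sets gave 0.63. PFKFB4 did not pass (log2 fold change -0.09, 95% confidence interval -0.24 to 0.06, limma adjusted p = 0.302), with 6.28 to 6.56 in 3D and 6.30 to 6.70 in 2D.

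The transcript of HIF1A, the oxygen-regulated subunit itself, did not pass. It was bright, at 12.44, 12.50 and 12.56 in 3D and 12.43, 12.62 and 12.66 in 2D, with overlapping groups. Its log2 fold change was -0.09 (SE 0.05, 95% confidence interval -0.19 to 0.01, limma adjusted p = 0.143), and both other HIF1A probe sets gave negative values too, -0.10 and -0.21, without passing. The lowest 2D array was replicate 6, and without it HIF1A passed as lower in 3D (-0.12, limma adjusted p = 0.0359). It also passed with quantile normalization (-0.13, limma adjusted p = 0.0166) and with array weights (-0.12, limma adjusted p = 0.0281). No alternative made it higher.

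EGLN1 (PHD2), the main HIF prolyl hydroxylase in normal oxygen, did not pass by its brightest probe set (log2 fold change -0.04, 95% confidence interval -0.17 to 0.10, limma adjusted p = 0.663), with 9.41 to 9.68 in 3D and 9.48 to 9.70 in 2D. A dimmer EGLN1 probe set fell by 0.34 (limma adjusted p = 0.00335). EGLN3 (PHD3), a hydroxylase strongly induced by HIF in many cells, was dim, at 5.93, 6.33 and 6.60 in 3D and 5.87, 6.03 and 6.40 in 2D, and did not pass by its brightest probe set (log2 fold change 0.26, 95% confidence interval 0.04 to 0.49, limma adjusted p = 0.0597). The other EGLN3 probe set passed as higher (limma adjusted p = 0.00698), but it was at background on all 6 2D arrays and 3 of 6 3D arrays and gets no fold. The lowest 3D value was that of replicate 2 and the highest 2D value also that of replicate 2. Without the first of these arrays EGLN3 passed (0.34, limma adjusted p = 0.00598), as it did without the second (0.33, limma adjusted p = 0.0189), and it also passed with quantile normalization, with median centring, with array weights and as the mean over its probe sets (limma adjusted p of 0.0413, 0.0436, 0.011 and 0.015). After adjustment for the 5′ to 3′ ratio its value was -0.07 (limma adjusted p = 0.771).

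Of the 4 secreted targets 1 rose, 1 fell and 2 did not pass. VEGFA, the growth factor of blood vessels and a reference target of HIF, had 10.25, 10.38 and 10.47 in 3D and 10.75, 11.08 and 11.16 in 2D. All 3D arrays were below all 2D arrays, and VEGFA fell by 0.67 on the log2 scale (SE 0.07, limma adjusted p = 9.79e-07). The dimmer VEGFA probe set fell by 0.48 (limma adjusted p = 0.0113). The fall of VEGFA kept its sign and passed under each alternative tried, with log2 fold changes from -0.74 to -0.57. ADM, the vasodilator peptide adrenomedullin, had 9.69, 10.16 and 10.55 in 3D and 10.18, 10.27 and 10.47 in 2D, so the 3D arrays spread beyond the 2D arrays on both sides (log2 fold change -0.16, 95% confidence interval -0.44 to 0.11, limma adjusted p = 0.337). ANGPTL4, an inhibitor of lipoprotein lipase, rose by 0.47 with 7.07 to 7.39 in 3D and 6.68 to 6.90 in 2D, while one of its 3 probe sets did not pass. STC2, a glycoprotein hormone, was at background on 4 of 6 3D arrays and 5 of 6 2D arrays and did not pass.

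The carbonic anhydrases, which hydrate carbon dioxide and help export acid, differed from each other in outcome. CA12 had 7.73, 8.30 and 8.46 in 3D and 7.06, 7.21 and 7.44 in 2D, and rose 2.05-fold (log2 fold change 1.04, SE 0.10, limma adjusted p = 9.94e-07). Its lowest 3D value was that of replicate 2, and after adjustment for the 5′ to 3′ ratio CA12 rose by 0.66 (limma adjusted p = 0.00113). CA9, among the genes most tightly tied to HIF-1 in tumours, was dim, with 6.38 to 6.68 in 3D and 6.32 to 6.56 in 2D, and did not pass (log2 fold change 0.11, 95% confidence interval -0.02 to 0.23, limma adjusted p = 0.151). Whether the changes of CA12 and CA9 differ was not tested.

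DDIT4 (REDD1), an inhibitor of mTORC1 induced by low oxygen and other stresses, showed the widest gap. It had 6.83, 7.13 and 7.84 in 3D and 5.02, 5.15 and 5.70 in 2D, where it was at background on all 6 arrays. It was at least 2.82-fold higher in 3D (limma adjusted p = 1.36e-07) and at least 2.23-fold higher by its other probe set. The mitophagy receptor BNIP3L rose by 0.61, with 10.08 to 10.35 in 3D and 9.51 to 9.76 in 2D. Its relative BNIP3, measured by 1 probe set, was dim, with means of 5.93 in 3D and 5.97 in 2D. BNIP3 did not pass (log2 fold change -0.03, 95% confidence interval -0.17 to 0.10, limma adjusted p = 0.685), a result limited by signal near the background of 5.71. NDRG1, a stress-responsive gene and common hypoxia marker, had 7.96, 8.70 and 9.26 in 3D and 8.59, 8.79 and 9.20 in 2D. The 3D arrays of NDRG1 ranged more widely than the 2D arrays, and the gene did not pass (log2 fold change -0.27, 95% confidence interval -0.65 to 0.11, limma adjusted p = 0.244).

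Genes that hydroxylate collagen and fold secreted proteins rose together. P4HA1 and P4HA2 encode the catalytic subunits of collagen prolyl 4-hydroxylase, which stabilises the collagen triple helix. P4HA1 had 10.90, 11.11 and 11.23 in 3D and 9.85, 10.14 and 10.51 in 2D, and rose by 0.97 (SE 0.10, limma adjusted p = 9.57e-07), or by 0.64 after adjustment for the 5′ to 3′ ratio. P4HA2 had 11.77, 11.81 and 11.87 in 3D and 10.76, 10.86 and 10.98 in 2D, and rose by 0.96 (SE 0.05, limma adjusted p = 2.32e-10). Of its 6 probe sets 5 rose. ERO1A, the oxidase that drives disulfide formation in the endoplasmic reticulum, had 8.82, 9.10 and 9.23 in 3D and 7.72, 7.88 and 8.18 in 2D and rose 2.26-fold (log2 fold change 1.18, SE 0.08, limma adjusted p = 1.12e-08). All 3 genes of this group also rose after adjustment for the 5′ to 3′ ratio.

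Of the 5 remaining targets 3 rose and 2 did not pass. ANKRD37, an ankyrin repeat protein induced by HIF-1, had 7.99, 8.34 and 8.45 in 3D and 7.37, 7.59 and 7.84 in 2D and rose by 0.69 (SE 0.09, limma adjusted p = 2.07e-05), although the mean over its probe sets gave 0.37. INSIG2, a regulator of cholesterol synthesis, rose by 0.36, but did not pass after adjustment for the 5′ to 3′ ratio (0.26, limma adjusted p = 0.0669). The histone H3 lysine 9 demethylase KDM3A rose by 0.25, with overlapping groups, and its other probe set did not pass (0.24, limma adjusted p = 0.0773). With a minimum change of 1.2-fold neither KDM3A nor INSIG2 passed. KDM4B did not pass (log2 fold change -0.02, 95% confidence interval -0.15 to 0.10, limma adjusted p = 0.764). MXI1, an antagonist of MYC, did not pass (log2 fold change -0.04, 95% confidence interval -0.20 to 0.11, limma adjusted p = 0.657), and one of its other probe sets fell by 0.32 (limma adjusted p = 0.000209).

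**Figure D3:**
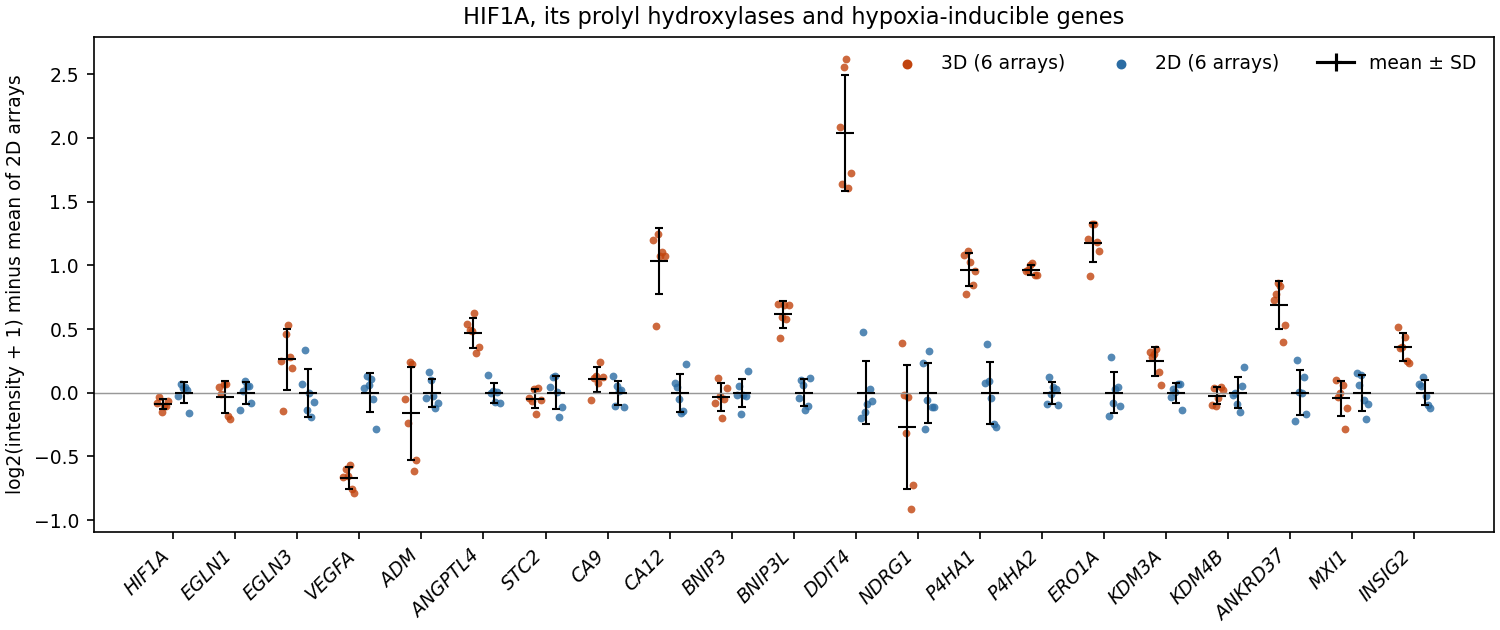
HIF1A, its prolyl hydroxylases and the hypoxia-inducible genes (x axis) as log2(intensity + 1) minus the mean of the 2D arrays (y axis), 1 probe set per gene, a point per array, bars for mean ± SD (6 arrays per group). DDIT4, CA12, ERO1A, P4HA1 and P4HA2 lie above the 2D arrays and VEGFA below them, while ADM and NDRG1 spread on both sides in 3D.

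At the level of probe sets, 59 of the 91 passed as higher in 3D and 6 as lower, against 16.7% raised and 22.0% lowered of all 42924 tested probe sets. Of the 91, 51 separated with 3D higher, which 10.1% of all probe sets did. After adjustment for the 5′ to 3′ ratio 47 of the 91 passed as higher and 5 as lower, against 4303 raised and 3624 lowered of all 42924. Among the glycolytic enzymes 33 of 34 probe sets passed as higher, and the exception was the HK1 probe set named above. One of the 33, of PGK1, was at background on all 12 arrays, so that 32 of these and 58 of the 59 were above background on at least 1 array. After adjustment for the 5′ to 3′ ratio 27 of the 34 glycolytic probe sets passed as higher and 0 as lower. The 6 lowered probe sets belonged to HK1, SLC2A3, EGLN1, MXI1 and VEGFA, the last with 2. At background on every array were 5 probe sets, namely those of PGK1, P4HA1 and ANKRD37 and 2 of SLC2A3, and get no fold.

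**Figure D4:**
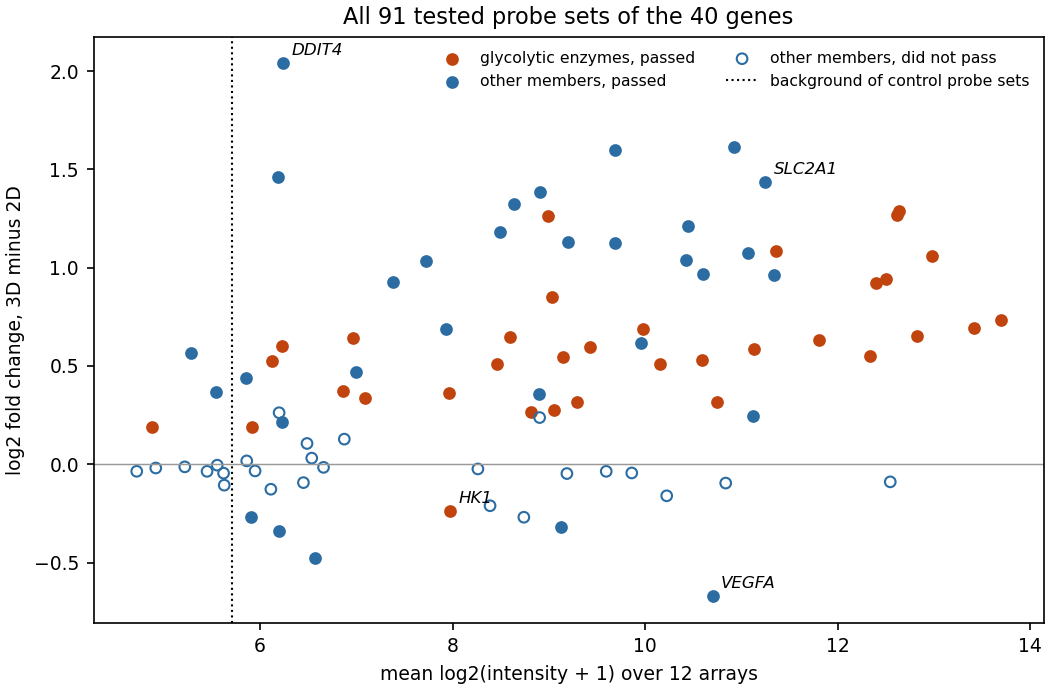
Each of the 91 tested probe sets by its mean log2(intensity + 1) over the 12 arrays (x axis) and its log2 fold change, 3D minus 2D (y axis), coloured by glycolytic enzymes or other members, filled where it passed. Of the glycolytic probe sets, 33 lie above zero across the whole range of brightness and 1, of HK1, lies below it; the dotted line marks the background of 5.71.

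The genes also varied among arrays of a group. The mean over the 15 glycolytic enzymes was 10.82 to 10.92 in 3D and 10.08 to 10.33 in 2D, so 3D arrays were alike in it. The highest 2D array was replicate 2, which had the highest value of its group in 18 of the 40 genes and in 7 of the 15 glycolytic enzymes. The mean over the 25 other genes was 8.73 to 8.95 in 3D and 8.39 to 8.57 in 2D, and again 2D replicate 2 was highest of its group. In 3D, replicates 5 and 6 had the lowest mean over these 25 genes, at 8.73 each, and replicate 4 the highest. In replicates 5 and 6 PFKFB3 (9.26 and 9.17), ADM (9.69 and 9.78) and NDRG1 (7.96 and 8.15) had their lowest 3D values, and PFKFB3 was still above all 2D arrays there. The 5′ to 3′ ratio of these 2 arrays, -0.55 and -0.44, was within the range of the other 3D arrays. Among the 3D arrays, replicate 2, whose ratio was -0.88, was lowest most often. It had the lowest 3D value in 11 of the 40 genes and in 6 of the 15 glycolytic enzymes. In 2D, replicates 1 and 6 were each lowest in 13 of the 40 genes, and in 6 and 5 of the glycolytic enzymes. Their ratios were -0.82 and -0.98. Whether the variation within a group goes with RNA integrity was not tested.

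**Figure D5:**
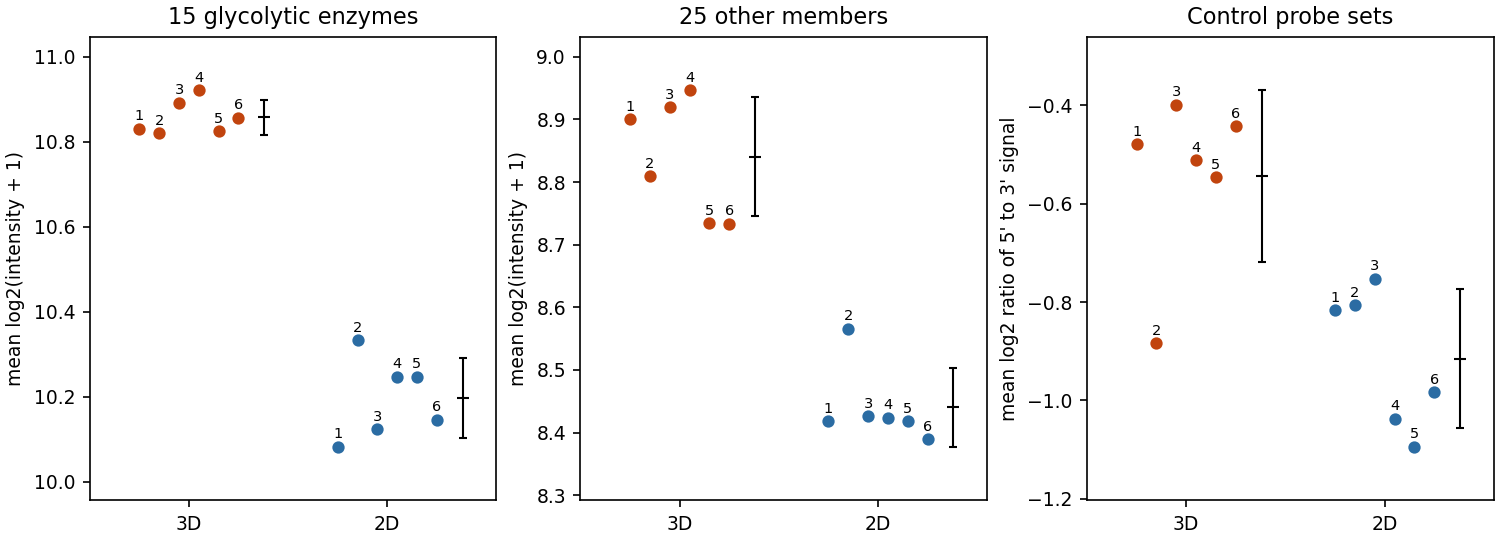
Mean log2(intensity + 1) over the 15 glycolytic enzymes (left), over the 25 other genes (middle) and mean log2 ratio of 5′ to 3′ control signal (right) for each array, numbered by replicate, with mean ± SD of 6 arrays per group. The left and middle panels separate 3D from 2D, with replicate 2 highest in 2D, and in the right panel 3D replicate 2, at -0.88, lies among the 2D arrays.

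Neighbouring steps of metabolism were read from lists of other genes. Their shares stand against the 19.8% raised and 22.9% lowered of all genes, or 12.6% and 8.33% after adjustment for the 5′ to 3′ ratio. In the lactate and pyruvate branch 7 of 18 measured genes rose (38.9%) and 2 fell (11.1%), with a median log2 fold change of 0.09, and after that adjustment 4 rose and 2 fell. The lactate exporter SLC16A3 rose by 1.68 (SE 0.10) and the monocarboxylate transporter SLC16A1 by 0.75, while MPC1, which carries pyruvate into mitochondria, fell by 1.48 (SE 0.05). PDK4, a kinase that inhibits pyruvate dehydrogenase, rose by 0.89, but was at background on 5 of 6 2D arrays. The rise of SLC16A1 did not pass after adjustment for the ratio (0.27, limma adjusted p = 0.274). LDHA, which makes lactate and was picked out after its values were seen, rose by 0.56 (SE 0.05, limma adjusted p = 2.33e-07).

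Among other isoforms and regulators of glycolysis 6 of 17 genes rose (35.3%) and 4 fell (23.5%, near the share of all genes), and after adjustment 6 rose and 2 fell. Of the 4 that fell, 1, SLC2A12, was at background on all arrays. PKLR and SLC2A2 were at background on all 6 3D arrays and on 2 and 4 of the 2D arrays, and PFKFB2 on 3 3D arrays. The 2 lowered after adjustment were PKLR and SLC2A12. The hexokinase-like HKDC1 rose by 0.93, the urate and sugar transporter SLC2A9 by 0.92, the phosphoglucomutase PGM2 by 0.78, and TIGAR, which lowers fructose 2,6-bisphosphate, by 0.49. Among genes of gluconeogenesis and glycogen metabolism 4 of 15 rose (26.7%) and 3 fell (20%), shares near those of all genes, and after adjustment 2 rose and 2 fell. Of the 3 that fell, 1 was at background on all arrays. FBP1, which opposes phosphofructokinase in gluconeogenesis, fell by 0.72 (SE 0.06, limma adjusted p = 9.44e-08), and SLC37A4, the glucose 6-phosphate transporter, fell by 0.29, while UGP2 rose by 0.54 and PCK2 by 0.42. In the pentose phosphate pathway 3 of 5 genes rose, RPE and TKT by 0.33 each and PGD by 0.17, and after adjustment RPE and TKT rose and PGD did not pass. The transketolase-like gene TKTL1 passed as lower, but was at background on all arrays.

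Of 13 measured HIF subunits and regulators other than the genes above, 3 rose (23.1%, against 19.8% of all genes) and 4 fell (30.8%, against 22.9% of all genes), with a median of 0.01, and after adjustment 1 rose and 4 fell. CREBBP, a coactivator of HIF, fell by 0.49, CITED2, which competes with HIF for that coactivator, by 0.43, and HIF3A by 0.28. CUL2, the scaffold of the VHL ligase, rose by 0.36, but was at background on 4 of 6 2D arrays. The 4 lowered genes were not all the same after adjustment. ARNT2, which had fallen by 0.21, did not pass then (-0.04, limma adjusted p = 0.860). ARNT, the partner of HIF1A, had risen by 0.21 and also did not pass after adjustment (-0.04, limma adjusted p = 0.804). Of 29 other hypoxia-inducible genes, 15 rose (51.7%) and 4 fell (13.8%), with a median of 0.30, and after adjustment 11 rose and 2 fell. The vascular receptor FLT1 rose by 1.30, the mitochondrial adenylate kinase AK4 by 1.17 and the glycogen-targeting subunit PPP1R3C by 1.09, while VLDLR, a lipoprotein receptor, fell by 1.23 (SE 0.05, limma adjusted p = 4.66e-11).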

How the data were processed

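The authors deposited 1 intensity for each probe set on every array, in linear units. Per the submitters' processing notes GCRMA was used, with no version given; the background model, probe set definitions and genome build are not given there or in the labels. Values were taken as log2(intensity + 1) with no further normalization. The changes of dim genes are slightly understated by the added 1, and a pseudocount of 16 changed no call among the 40 genes. Arrays have no depth, and their number limits the precision. After 111 control probe sets were removed, 42924 were fitted with group alone in limma 3.58.1 (lmFit, eBayes; R 4.3.3). Tests were two-sided, with Benjamini-Hochberg adjustment over all 42924 and a threshold of 0.05. Confidence intervals are from the same fit, unadjusted.

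Symbols came from the platform annotation (29254 tested probe sets with 1 gene, 439 with several, 13231 with none), and for 38 of the 40 genes the identifier was found with the same symbol in the RefSeq genes of UU_Cfam_GSD_1.0. No sequences or coordinates are given. Probe sets ending in _s_at or _x_at, which stood for 18 of the 40 genes, can hybridise with related transcripts. Background was the 95th percentile of 59 bacterial and tag control probe sets on each array. A gene at or below it on all arrays of one group has its change given as a bound against that level, and one below it on all 12 arrays gets no fold.

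Full values are given for the 16 genes that passed and changed most, for HIF1A and for genes with probe sets in both directions. From each of the other lists up to 4 genes are named by size of change. Named besides are LDHA, ARNT, ARNT2 and the 4 lowered genes among other isoforms and regulators of glycolysis. The lists' counts with the 5′ to 3′ ratio as a covariate were added after seeing the data. The members and lists were chosen with earlier results of these data known. Alternatives were a filter at a mean log2 value of 6, quantile normalization, median centring, a pseudocount of 16, a trended robust prior, array weights, a replicate block, the 5′ to 3′ ratio of control probe sets as a covariate, each array left out, 2D replicate 6 and 3D replicate 2 left out together, a minimum change of 1.2-fold, and both other ways to choose a gene's probe set. The fit was also tested on simulated data. Plots were made in Python 3.11.15 (matplotlib 3.10.9).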

Additional observations from a re-analysis of the deposited data

Results flagged for a closer look

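In 4 of the 80 sets of 6 values that were examined, 1 array stood far from the rest of its group, and chance alone gives about 1 such set in 20. Of these, 3 concern 2D replicate 2. PGK1 had 12.44 there, while the other 2D arrays lay between 11.83 and 11.97, PGAM1 had 13.25 against 12.96 to 13.06, and DDIT4 had 5.70 against 5.02 to 5.25, which is at background. In 3D replicate 2, CA12 had 7.73, with 8.28 to 8.46 on the other 3D arrays. Without 2D replicate 2 the log2 fold change was 1.38 for PGK1 and 0.73 for PGAM1, and without 3D replicate 2 that of CA12 was 1.14, and all 3 still passed. The cause of these values was not tested.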

How the results depend on the processing

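For 25 of the 40 genes the direction and the side of the threshold were the same under each of the 24 alternatives that could be computed for them. Leaving out each array in turn gave 27 to 28 genes raised and 1 to 2 lowered, 57 to 60 of the genes' probe sets raised and 5 to 7 lowered, and 6453 to 8033 of all probe sets raised and 7430 to 11016 lowered; the difference in the log2 ratio of 5′ to 3′ control signal ranged from 0.34 to 0.44. The count of lowered genes was 3 with array weights, and also without both 2D replicate 6 and 3D replicate 2. Probe sets without a suffix gave 3 too. SLC2A3 gave way to HIF1A with quantile normalization and to EGLN1 with the mean over probe sets, so the count stayed at 2. The count was 1 in place of 2 with the filter, which removed SLC2A3, after adjustment for the 5′ to 3′ ratio and with a minimum change of 1.2-fold. Adjustment for that ratio left 4303 of all probe sets raised and 3624 lowered, in place of 7171 and 9437, and the minimum change left 2283 and 773, and 1 lowered probe set of the 40 genes in place of 6, since that test asks for a larger effect. The sign turned for SLC2A3, which had passed as lower, and for genes that had not passed: quantile normalization gave 0.027 for STC2 and 0.034 for BNIP3, centring gave 0.0001 for KDM4B, adjustment for that ratio gave 0.058 for SLC2A3, -0.074 for EGLN3, 0.083 for BNIP3 and 0.056 for KDM4B, and leaving out 2D replicate 6 and 3D replicate 2 together gave 0.0057 for KDM4B. With single arrays left out BNIP3 ranged from -0.067 to 0.0007, KDM4B from -0.054 to 0.017 and MXI1 from -0.086 to 0.0032. HK1, which had passed as higher, turned to -0.24 with the probe set without a suffix, since its probe sets disagree. For the others the cause was not tested. Arrays of the same number deviated together (r over 0.1) in 3 of 6 pairs, and 5 of 12 arrays correlated best with their own number, so the number was not taken as a pairing; the replicate block gave 27 raised and 2 lowered genes, 60 raised and 6 lowered probe sets of these genes, and 7402 raised and 9728 lowered of all probe sets, and changed no call among the 40 genes. Dim genes such as STC2, BNIP3, CA9, EGLN3 and SLC2A3 are limited by signal near background.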
